A study of Drosophila melanogaster with 3 samples.

Results

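The stem-like progenitors of the *Drosophila* midgut were compared between the mature and the immature adult fly in single-cell RNA sequencing data. They are 483 cells of the 5190 that passed the cell filter in the series, namely 246 of 1980 kept cells of the mature adult and 237 of 1197 kept cells of the immature adult. A cell was counted when *esg*, *klu*, *E(spl)m3-HLH* and *E(spl)mbeta-HLH* together held at least 8 per 10000 of its unique molecular identifiers (UMIs, each a count of 1 captured transcript) and at least 3 UMIs. It also had to hold at most 1 UMI of *pros* and less than 2 per 10000 of *stg* plus *dUTPase*. The cells were therefore selected on the measured values of these 7 genes, whose levels are described below without being read as a result. The cell filter also limited the mitochondrial share of a cell's UMIs to below 25%.

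The study asked when and where the circadian clock of the intestine arises during development and adult life. The mature adult library was made from intestines of females at day 7 to 8 of adulthood, and the immature adult library from females at day 1. Both are labelled CantonS with a *per01* background, where *per01* is a mutation of the clock gene *period* whose flies lack clock rhythms, whereas the study's methods name CantonS alone. Both were dissected at ZT0, the time of lights on, and the dissociated cells were captured in droplets with a 10x Genomics chemistry that reads the 3′ end of each transcript. The cell number that the study's methods give for the pharate stage, just before the adult hatches, is the number of barcodes in the immature adult files. There was 1 library per stage, so stage and library cannot be told apart, and no difference here has a replicate or a test. Intervals are exact 95% intervals and cover counting error only.

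Intestinal stem cells (ISCs) divide to renew themselves and to give enteroblasts (EBs), which become the absorptive and enzyme-secreting enterocytes (ECs), or cells that become the hormone-secreting enteroendocrine cells (EEs). The ligand Delta on the ISC activates Notch in the EB, and Notch switches on the *E(spl)* repressors and *klu*, while the transcription factor *esg* is on in both and holds back their differentiation. The EGFR and JAK/STAT pathways drive division and EB maturation, and the clock proteins Clk and cyc drive *per*, *tim*, *vri* and *Pdp1*, whose products feed back on them. Taking these genes together, the rule selects ISCs and EBs as 1 class.

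The stem-like progenitors made up 12.4% (11.003% to 13.96%, Clopper-Pearson) of the kept cells in the mature adult and 19.8% (17.6% to 22.2%) in the immature adult. They held a median of 19073.5 UMIs (1531 to 72981) and 2696.5 genes in the mature adult, and of 25129 UMIs (1030 to 74420) and 2768 genes in the immature adult. Summed over the cells this gave 5285310 UMIs in the mature and 6608634 UMIs in the immature adult. A level below is a gene's summed UMIs per 1000000 of these totals (CPM), and a ratio is the log2 of mature over immature. Mitochondrial transcripts took a median of 7.56% of a cell's UMIs in the mature and 5.99% in the immature adult. No barcode of these cells was shared between the libraries.

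*esg* stood at 1069 CPM in the mature and 633 CPM in the immature adult, and the median cell held 9.16 *esg* UMIs per 10000 in the mature and 5.96 in the immature adult. *klu* stood at 471 CPM in the mature and 449 CPM in the immature adult, *E(spl)mbeta-HLH* at 524 CPM in the mature and 484 CPM in the immature adult, and *E(spl)m3-HLH* at 331 CPM in the mature and 260 CPM in the immature adult. The median cell scored 22.6 per 10000 on the 4 genes in the mature and 17.5 in the immature adult. Of the cells that passed this score, the limit on *stg* and *dUTPase*, which mark cells about to divide or copying DNA, left out 23 of 283 in the mature and 133 of 384 in the immature adult. The limit on *pros*, the EE fate factor, left out 15 mature and 17 immature cells. Just inside the threshold, between 8 and 10 per 10000, lay 14 mature cells with a median of 6.96% digestive enzyme UMIs and 21 immature cells with a median of 0.0125%. Just outside, between 6 and 8 per 10000, lay 16 mature cells with a median of 19.6% and 13 immature cells with 0.0122%.

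Markers that the rule did not use were compared, though they are few and do not test the name of the cells. *robo2*, a guidance receptor of the progenitor compartment, stood at 791 CPM in the stem-like progenitors against 29.6 CPM in the rest of the kept cells of the mature adult, and at 519 against 204 CPM in the immature adult. At least 2 times the level of the rest was seen for 64.7% of all tested genes in the mature and 4.97% in the immature adult. The peptide hormones of EEs summed to 237 CPM in the mature and 167 CPM in the immature progenitors, against 119386 CPM in mature and 112839 CPM in immature cells with *pros*. These *pros* cells, 100 in the mature and 212 in the immature adult, serve below as a second class of cells from the same libraries. The rule limits *pros* and these cells were chosen for it, so the peptide contrast follows in part from the selection. Markers of ECs summed to 11689 CPM in the mature and 456 CPM in the immature progenitors. The immature rest of the kept cells included the 133 cells left out by *stg* and *dUTPase*, so levels outside the class are not a clean contrast there. The male-specific *roX* RNAs held 1 UMI in the mature and 88 UMIs in the immature progenitors, in 4 of 237 cells of which 1 held at least 3 UMIs, in libraries labelled female.

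Over the 5172 genes with at least 100 UMIs in both libraries together, 325 were at least 2-fold higher in the mature adult (6.28%), 93 were at least 2-fold lower (1.8%) and 4754 lay within 2-fold. The median ratio over these genes was 0.17, so that 65.6% of them lay above 0, and lists of genes are read against this median. A ratio past 4-fold was seen for 131 genes upward and 16 downward. Of the 325 higher genes, 124 were also at least 2-fold higher in *pros* cells and 152 in barcodes with at most 1000 UMIs, taken here as a stand-in for free RNA. These low barcodes are among those that the study counted as cells before its filters, so they can hold RNA of shallow cells too. Mitochondrially encoded genes took 148916 CPM in the mature and 501242 CPM in the immature low barcodes, so these sets were not alike. Of the 93 lower genes, 22 were also at least 2-fold lower in *pros* cells and 53 in the low barcodes. Among the other kept cells, which are neither progenitors nor *pros* cells, 103 of the 325 higher genes were past 2-fold the same way. The same held for 85 of the 93 lower genes. The share of all tested genes past 2-fold in these cells and barcodes was not counted, so these overlaps are not read as a result about the progenitors.

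**Figure D1:**
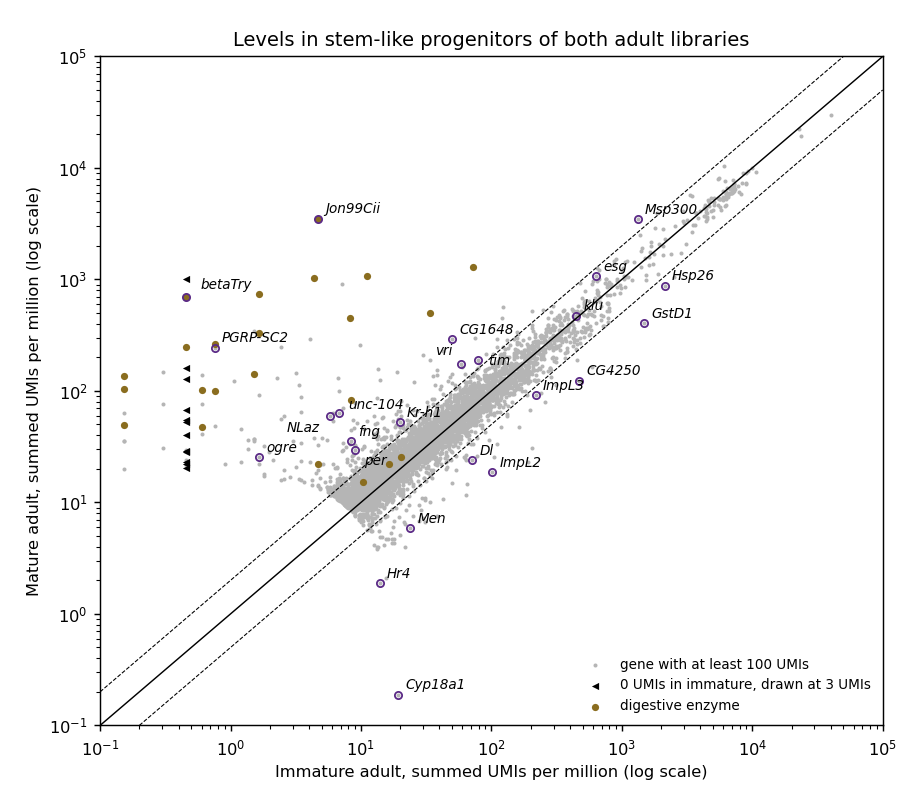
Each point is 1 gene with at least 100 UMIs summed over the stem-like progenitors of both adult libraries, with its summed UMIs per 1000000 in the mature adult on the vertical and in the immature adult on the horizontal axis, both on log scales. The dashed lines mark 2-fold, and triangles are genes at 0 UMIs in the immature adult, drawn at 3 UMIs. Digestive enzymes spread far above the line, *Jon99Cii* at 3515 CPM in the mature against 4.69 CPM in the immature adult, while *Cyp18a1*, *Hr4*, *ImpL2* and *GstD1* lie below it.

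The clock genes *vri*, *tim* and *per* were higher in the mature progenitors. Of 18 genes of the clock list, 3 were at least 2-fold higher and none was 2-fold lower, against 6.28% higher and 1.8% lower over all tested genes. The median ratio of the 18 genes was 0.11, near that of all genes. *vri* (FBgn0016076, 2L:5288944-5311223, positions from the BDGP6 annotation), a repressor of *Clk*, stood at 175 CPM in the mature and 58.1 CPM in the immature adult, a ratio of 1.59 (1.42 to 1.77). *tim* (FBgn0014396, 2L:3493986-3508119), the partner of period protein, stood at 190 CPM in the mature and 78.5 CPM in the immature adult, a ratio of 1.28 (1.12 to 1.43). *per* itself (FBgn0003068, X:2685580-2692780) stood at 29.3 CPM in the mature and 9.08 CPM in the immature adult, a ratio of 1.69 (1.25 to 2.15).

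The higher levels of *vri* and *tim* were spread over many cells, whereas a *per* UMI was found in 79 of 246 mature and 45 of 237 immature cells. With each cell thinned to 5000 UMIs, which left 214 mature and 219 immature cells, a *vri* UMI was found in 50.5% of mature and 20.1% of immature progenitors, and before thinning in 79.7% of mature and 62.9% of immature cells. For *tim* the thinned shares were 60.3% in the mature and 33.3% in the immature adult, and before thinning 84.1% in the mature and 75.9% in the immature adult. The interquartile range of *vri* over single cells ran from 0.464 to 2.43 UMIs per 10000 in the mature and from 0 to 0.832 in the immature adult, so that the cells of both stages overlapped. *Pdp1*, an activator of *Clk*, stood at 1453 CPM in the mature and 871 CPM in the immature adult, a ratio of 0.74 that lies within 2-fold. *Clk*, which with *cyc* activates these genes, stood at 19.1 CPM in the mature and 20.4 CPM in the immature adult, a ratio of -0.10 whose direction depended on the cells counted, at 0.73 after thinning and 0.58 among cells with at most 3000 genes. *cyc* stood at 17.6 CPM in the mature and 27.4 CPM in the immature adult, a ratio of -0.64 that stayed below 0 in all alternatives run. The repressor *cwo* stood at 272 CPM in the mature and 250 CPM in the immature adult, and the photoreceptor *cry* at 32.5 CPM in the mature and 33.9 CPM in the immature adult. *dco*, the doubletime kinase, stood at 125 CPM in the mature and 93.2 CPM in the immature adult. In *pros* cells the ratio was 1.65 for *tim*, 0.54 for *per* and -0.24 for *vri*.

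**Figure D2:**
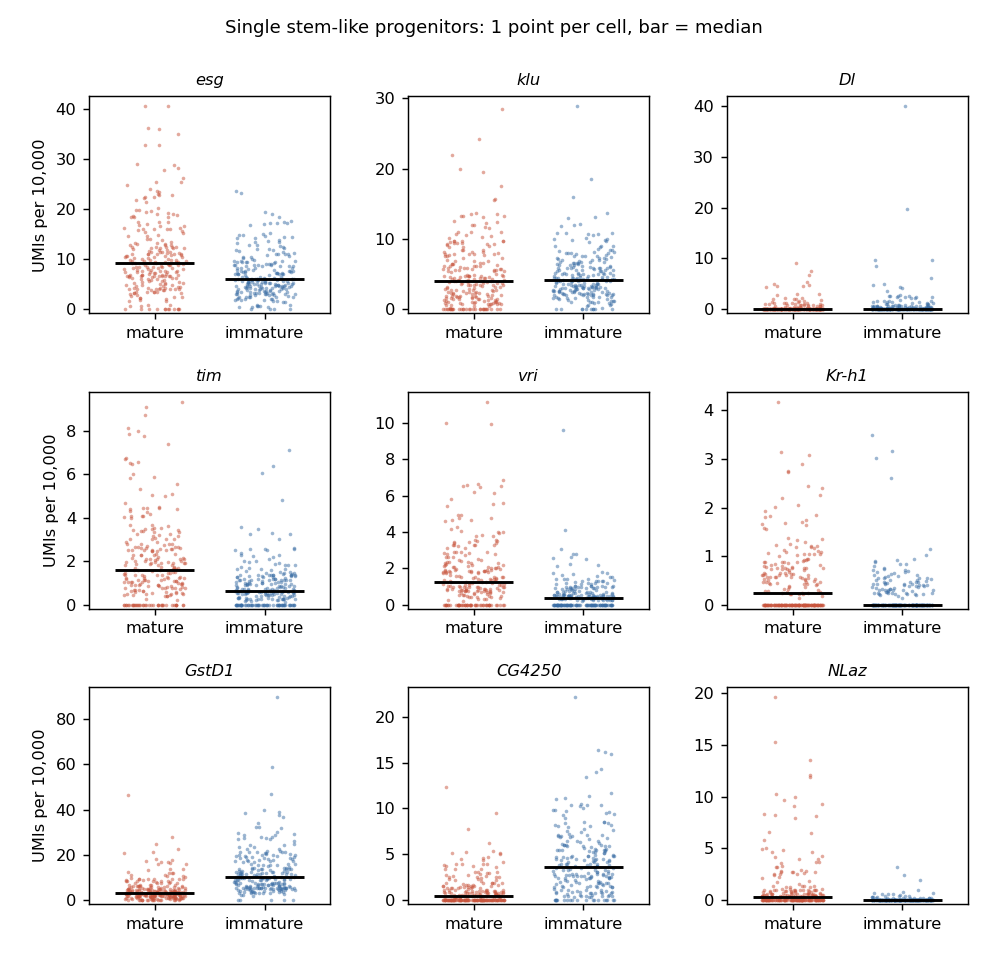
Each point is 1 stem-like progenitor, 246 of the mature adult on the left and 237 of the immature adult on the right of each panel, and the vertical axis gives the gene's UMIs per 10000 of that cell. Bars are medians. The median lies at 1.27 for *vri* in the mature against 0.384 in the immature adult, and at 3.33 for *GstD1* in the mature against 9.98 in the immature adult, and the cells of both stages overlap.

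Several genes of the response to ecdysone, the steroid that drives metamorphosis, were lower in the mature progenitors. Of 22 tested genes in the list of ecdysone genes and nuclear receptors, 5 were at least 2-fold lower and none was 2-fold higher. Over all tested genes 1.8% were lower and 6.28% higher. Of the 22 genes, 8 had a ratio above 0 and 14 below it. The 34 genes of the full list summed to 3128 CPM in the mature and 3085 CPM in the immature progenitors, so their sum was level. The list had a median of -0.27, with 18 of 22 below the median of all genes. *Hr4* (FBgn0264562, X:1941940-2007956), a nuclear receptor induced by ecdysone, stood at 1.89 CPM in the mature and 13.9 CPM in the immature adult, a ratio of -2.88 (-3.99 to -1.94). A *Hr4* UMI was found in 5 mature and in 59 immature cells, and its ratio in *pros* cells was -3.34. *ImpL2*, a secreted protein that binds insulin-like peptides and is induced by ecdysone, stood at 18.7 CPM in the mature and 101 CPM in the immature adult, a ratio of -2.44 (-2.76 to -2.13), against 0.16 in *pros* cells.

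The remaining 3 lower genes of this list, like *Hr4*, had low levels at both stages. *Eip78C*, an early ecdysone target, stood at 4.16 CPM in the mature and 14.98 CPM in the immature adult. *br*, the Broad transcription factor of the pupal stage, stood at 3.97 CPM in the mature and 13.2 CPM in the immature adult, a ratio of -1.73, which was -0.40 among progenitors with at most 3000 genes. *Cyp18a1* (FBgn0010383, X:18688538-18693042), the enzyme that inactivates ecdysone, held 1 UMI in the mature and 127 UMIs in the immature adult, a ratio of -6.67 (-11.98 to -4.16). Of the immature *Cyp18a1* UMIs, 77% came from 5 cells, and 8.02% of the cells held any. The receptor did not follow them, with *EcR* at 122 CPM in the mature and 142 CPM in the immature adult and its partner *usp* at 29.3 CPM in the mature and 25.1 CPM in the immature adult.

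Of 8 genes of the list for juvenile hormone, the other hormone of insect development, 3 were at least 2-fold higher and none was 2-fold lower. Over all tested genes 6.28% were higher, and with a list this short the difference from that share was not tested. Of the 8 genes, 5 had a ratio above 0 and 3 below it. The median was 0.75, and 0.29 with the low-barcode profile subtracted. The 17 genes of the full list summed to 1735 CPM in the mature and 1625 CPM in the immature progenitors. *Kr-h1* (FBgn0266450, 2L:6082603-6096498), the transcription factor that juvenile hormone induces, stood at 52.2 CPM in the mature and 19.8 CPM in the immature adult, a ratio of 1.40 (1.09 to 1.71). A *Kr-h1* UMI was found in 18.7% of mature and 2.74% of immature cells after thinning to 5000 UMIs, and in 52.8% of mature and 36.3% of immature cells before it. *gce*, a receptor of the hormone, stood at 234 CPM in the mature and 156 CPM in the immature adult, a ratio of 0.58. Of the epoxide hydrolases that break the hormone down, *Jheh1* stood at 60.7 CPM in the mature and 26.2 CPM in the immature adult, a ratio of 1.21, and *Jheh2* at 120 CPM in the mature and 63.1 CPM in the immature adult, a ratio of 0.92. *Jheh3* stood at 15.3 CPM in the mature and 3.63 CPM in the immature adult, but its level in the low barcodes was 246 CPM in the mature and 86.2 CPM in the immature adult, and its ratio of 2.08 was 1.16 among cells with less than 1% digestive enzyme UMIs. With the low-barcode profile subtracted it was -1.46. That subtraction took 6.89% of the mature and 2.33% of the immature progenitor UMIs as free RNA, the scale at which the digestive enzyme sum becomes 0. It thus counts every digestive UMI as free RNA and is an upper limit, in so far as the low barcodes stand for free RNA.

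**Figure D3:**
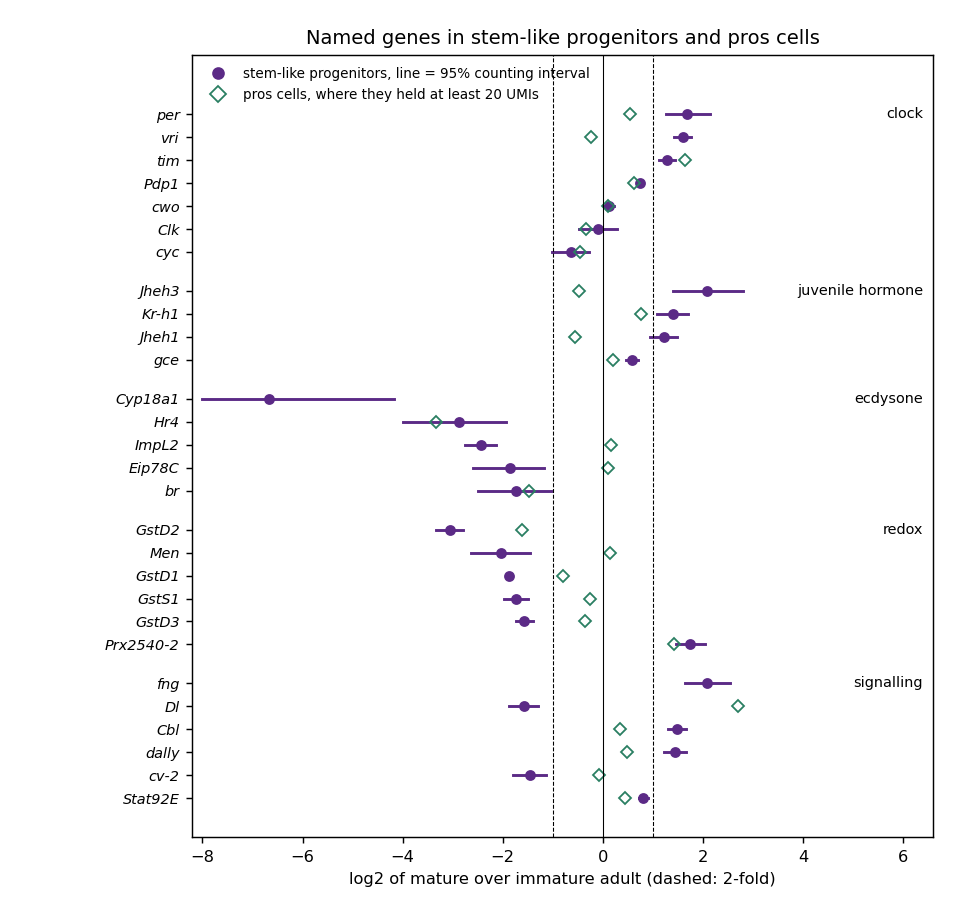
The horizontal axis gives the log2 ratio of mature over immature adult for named genes of 5 groups. Filled points are stem-like progenitors with 95% counting intervals (that of *Cyp18a1* runs beyond the axis), open diamonds are *pros* cells, and dashed lines mark 2-fold. *vri*, *Kr-h1*, *fng* and *dally* lie past 2-fold upward in the progenitors. The glutathione S-transferase genes and the 5 ecdysone genes drawn lie past 2-fold downward. These 5 are the ones called lower among the 22 tested genes of their list, and the others are not drawn.

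Within the Notch pathway, the ligand was lower and a modifier of the receptor higher in the mature progenitors, while the receptor was level. Of 20 genes, 1 was at least 2-fold higher and 1 at least 2-fold lower, with a median of 0.12. Over all tested genes these shares were 6.28% and 1.8%, and a list this short is not set apart from them. *Dl* (FBgn0000463, 3R:19302731-19326217), the ligand that marks ISCs, stood at 23.8 CPM in the mature and 71.4 CPM in the immature adult, a ratio of -1.58 (-1.88 to -1.30). A *Dl* UMI was found in 21.1% of mature and 34.6% of immature cells, and after thinning in 10.3% of mature and 17.4% of immature cells. In the low barcodes the *Dl* level was 1.56 CPM in the mature and 13.7 CPM in the immature library. The *Dl* ratio was -0.92 when each cell had the same weight, and -0.63 among cells with at most 3000 genes, both within 2-fold. *fng*, the glycosyltransferase that tunes Notch to its ligands, stood at 35.2 CPM in the mature and 8.32 CPM in the immature adult, a ratio of 2.08 (1.64 to 2.54). *N*, the receptor, stood at 474 CPM in the mature and 455 CPM in the immature adult, and *E(spl)malpha-BFM*, a Notch target outside the rule, at 300 CPM in the mature and 475 CPM in the immature adult, a ratio of -0.66.

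Other progenitor markers lay on both sides of 0. Of the 22 genes in the list, 1 was at least 2-fold higher and 1 (*Dl*) at least 2-fold lower, with a median of 0.21. This is not set apart from the 6.28% higher and 1.8% lower over all tested genes. *mira* (FBgn0021776, 3R:19931799-19935120), an adaptor that segregates fate factors in dividing neuroblasts, stood at 213 CPM in the mature and 91.4 CPM in the immature adult, a ratio of 1.22 (1.08 to 1.37). This ratio was 0.74 with equal weight per cell, 0.80 after thinning and 0.47 among cells with at most 3000 genes, all within 2-fold. *lin-28*, an RNA-binding protein that favours symmetric ISC division, stood at 126 CPM in the mature and 227 CPM in the immature adult, a ratio of -0.85, and *msi*, the RNA-binding protein musashi, at 162 CPM in the mature and 230 CPM in the immature adult, a ratio of -0.51. *zfh2*, a transcription factor of progenitors, stood at 200 CPM in the mature and 127 CPM in the immature adult, a ratio of 0.66.

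Each growth factor list held at most 1 gene past 2-fold in either direction, against 6.28% higher and 1.8% lower over all tested genes, and lists this short are not set apart from that share. In the EGFR list of 20 genes, with a median of 0.29, only *Cbl*, a ubiquitin ligase that removes the receptor, was at least 2-fold higher, at 164 CPM in the mature and 59.0 CPM in the immature adult, a ratio of 1.48 that was 0.90 among cells with at most 3000 genes. The ligand *spi* stood at 134 CPM in the mature and 79.3 CPM in the immature adult, a ratio of 0.75, and the nuclear effector *pnt* at 166 CPM in the mature and 109 CPM in the immature adult, a ratio of 0.61. In the JAK/STAT list of 11 genes none passed 2-fold in either direction, and *Stat92E*, its transcription factor, stood at 505 CPM in the mature and 288 CPM in the immature adult, a ratio of 0.81 (0.73 to 0.90). The cytokine *upd3* stood at 30.1 CPM in the mature and 25.1 CPM in the immature adult. In the BMP list of 16 genes *dally*, a glypican that holds ligands at the cell surface, stood at 111 CPM in the mature and 40.9 CPM in the immature adult, a ratio of 1.44, and *cv-2*, a secreted BMP-binding protein, at 19.5 CPM in the mature and 53.6 CPM in the immature adult, a ratio of -1.46. None of the 13 Wingless and 14 Hippo genes passed 2-fold.

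Enzymes of glutathione conjugation and redox control were lower in the mature progenitors. Of 33 genes, 8 were at least 2-fold lower and 2 at least 2-fold higher, against 1.8% lower and 6.28% higher over all tested genes. The list had a median of -0.37, with 29 of 33 below the median of all genes. Its median was -0.47 in *pros* cells and -0.47 in the low barcodes, so the lower level was not particular to the progenitors. *GstD1* (FBgn0001149, 3R:12367817-12369268), a glutathione S-transferase that detoxifies foreign compounds, stood at 404 CPM in the mature and 1480.3 CPM in the immature adult, a ratio of -1.87 (-1.94 to -1.80). It was found in nearly all cells, 93.5% of mature and 97.9% of immature ones, and its ratio in *pros* cells was -0.80. Its neighbour *GstD2* stood at 22.9 CPM in the mature and 190 CPM in the immature adult, with 49% of the immature UMIs from 5 cells. *GstD3* stood at 67.0 CPM in the mature and 199 CPM in the immature adult, and *GstS1* at 33.3 CPM in the mature and 110 CPM in the immature adult. The *GstD* genes are close copies in 1 cluster, and reads could be split among them. *Men*, the malic enzyme that supplies NADPH, stood at 5.87 CPM in the mature and 23.9 CPM in the immature adult, a ratio of -2.03, against 0.14 in *pros* cells. The peroxiredoxins *Prx2540-1* and *Prx2540-2*, near-identical copies whose split is uncertain, were the 2 higher genes with ratios of 1.17 and 1.75, whereas the peroxiredoxin *Jafrac1* was lower, with a ratio of -1.12.

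Nuclear genes of oxidative phosphorylation lay mostly below 0, by less than 2-fold. Of 62 genes, 60 had a ratio below 0 and all 62 lay below the median of all genes, with a median of -0.42 and none past 2-fold. *ATPsynF*, a subunit of ATP synthase, stood at 414 CPM in the mature and 787 CPM in the immature adult, and *COX6B*, a subunit of cytochrome c oxidase, at 384 CPM in the mature and 726 CPM in the immature adult. The median of the same list in *pros* cells was -0.61. Of 15 genes encoded by the mitochondrial genome, 12 had a ratio above 0, with a median of 0.52, and 0.72 in *pros* cells. The cell filter uses the mitochondrial share of a cell, so these genes are described without being read as a result. *mt:CoIII* stood at 10378 CPM in the mature and 6050.3 CPM in the immature adult. In the glycolysis list 14 of 17 genes had a ratio below 0, with a median of -0.29, and *ImpL3*, lactate dehydrogenase, stood at 91.4 CPM in the mature and 219 CPM in the immature adult, a ratio of -1.26 that was -0.82 with equal weight per cell.

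Lists of genes for making and degrading proteins had medians on both sides of 0. Of 31 genes of ribosome biogenesis, 26 had a ratio above 0 and 21 lay above the median of all genes, with a median of 0.37, and none passed 2-fold. With equal weight per cell the median of this list was 0.17, near the 0.15 of all tested genes in that setting. *ppan*, a factor for the large ribosomal subunit, stood at 42.8 CPM in the mature and 24.7 CPM in the immature adult. Of 82 cytoplasmic ribosomal protein genes, 63 had a ratio below 0, with a median of -0.16, and 78 lay below the median of all genes. They took 44.6% of UMIs in the mature and 49.2% in the immature progenitors. Proteasome subunits had a median of -0.34 with 22 of 31 below 0, which was 0.04 among cells with at most 3000 genes.

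Chromatin regulators lay above the median of all genes in 32 of 40 cases, with a median of 0.43. Of the 40, 2 were at least 2-fold higher, which is near the 6.28% over all tested genes and is not read as a result. *kis*, a chromodomain helicase, stood at 535 CPM in the mature and 247 CPM in the immature adult, a ratio of 1.11 that was 0.96 with equal weight per cell and 0.94 with the median of all genes subtracted, both within 2-fold. *Su(z)2*, a Polycomb group protein, stood at 38.2 CPM in the mature and 13.3 CPM in the immature adult, a ratio of 1.52, and its relative *Psc* at 106 CPM in the mature and 53.3 CPM in the immature adult, a ratio of 0.99. The trithorax group protein *osa* stood at 187 CPM in the mature and 113 CPM in the immature adult, a ratio of 0.72.

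**Figure D4:**
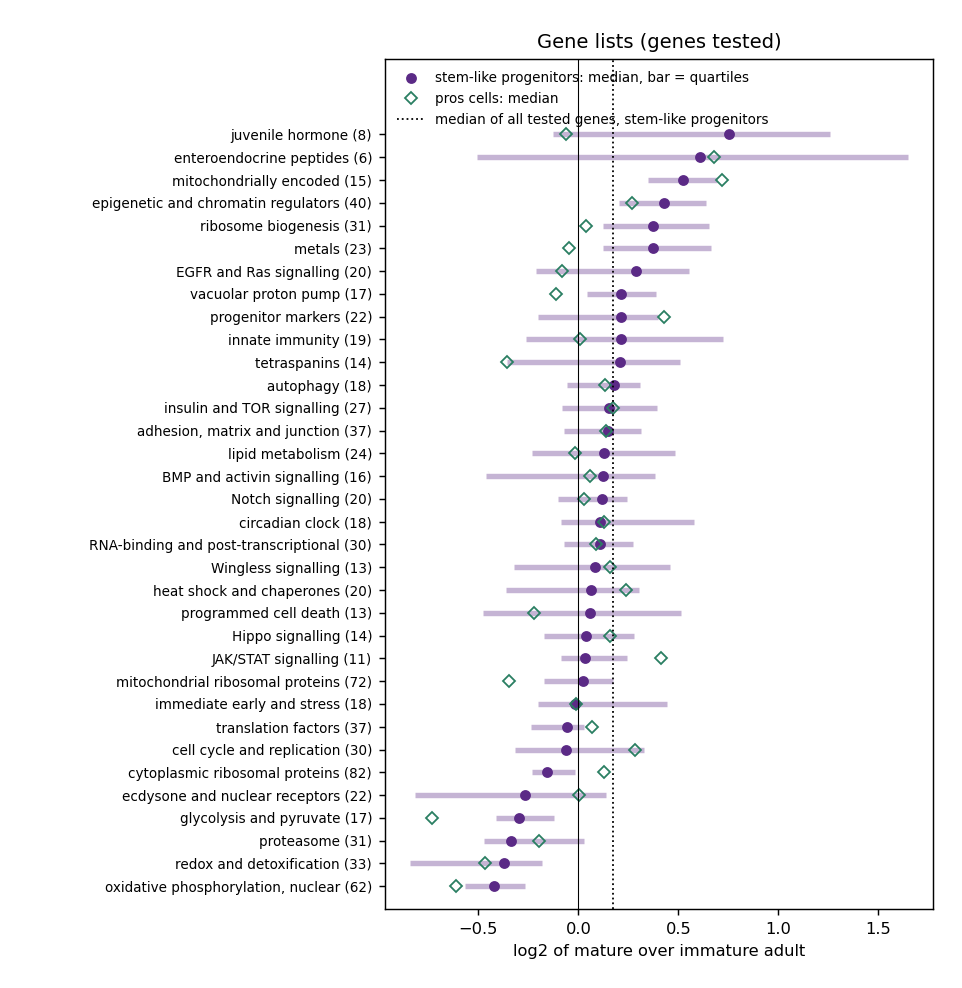
The horizontal axis gives the log2 ratio of mature over immature adult, and each row is a gene list with the number of genes tested. Filled points are medians in stem-like progenitors with bars from the lower to the upper quartile, open diamonds are medians of the same list in *pros* cells, and the dotted line marks the median of all tested genes at 0.17. Of the lists drawn, juvenile hormone genes lie highest at 0.75 and nuclear oxidative phosphorylation genes lowest at -0.42. Digestive enzymes, at 7.21, are not drawn.

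Transcript length moved with these lists. With the tested genes put in 5 bins of like size by their longest annotated transcript, the median ratio was 0.03 for transcripts of 162 to 1103 bases, 0.06, 0.15 and 0.25 in the next bins, and 0.37 for those of 4267 bases and more. In *pros* cells the same bins ran from -0.19 to 0.16. The median longest transcript was 836 bases for oxidative phosphorylation, 887 for ribosomal proteins, 1015 for redox enzymes, 2140 for ribosome biogenesis and 4026 for chromatin regulators. It was 5068.5 bases for the ecdysone list, with a ratio of -0.27. For mitochondrially encoded genes it was 789 bases, with a ratio of 0.52, and for digestive enzymes 923 bases, with a ratio of 7.21. The part of transcript length in any of these list medians was not tested.

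**Figure D5:**
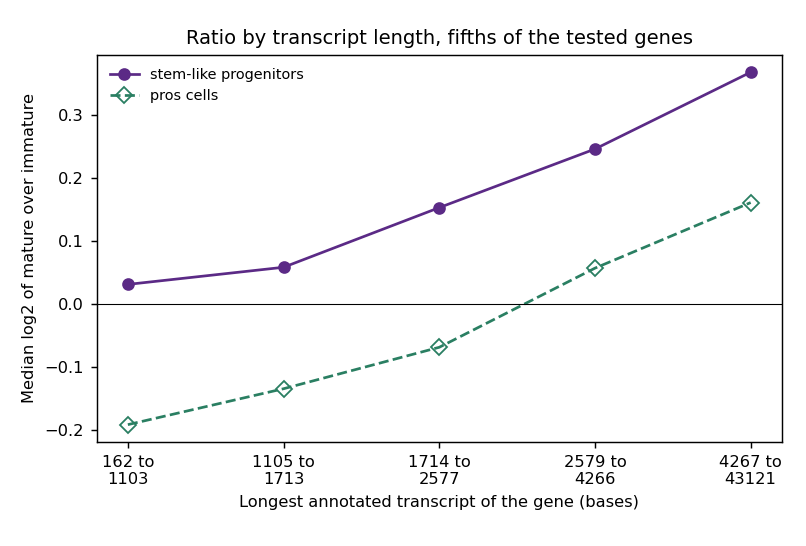
The vertical axis gives the median log2 ratio of mature over immature adult, and the horizontal axis 5 bins of the tested genes by longest annotated transcript in bases. The line of filled points is the stem-like progenitors and the dashed line of diamonds the *pros* cells. Both climb with length, from 0.03 to 0.37 in the progenitors.

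Most stress, death and replication genes lay within 2-fold. Over all tested genes 1.8% were at least 2-fold lower and 6.28% at least 2-fold higher. These lists are short, and whether their counts differ from those shares was not tested. Of 20 heat shock and chaperone genes 2 were at least 2-fold lower and none higher. Of 18 immediate early and stress genes 2 were higher and none lower. Of 13 programmed cell death genes 3 were lower and none higher, against 1.8% lower over all tested genes, while 8 of the 13 had a ratio above 0. Of 30 cell cycle and replication genes 1 was lower and none higher. *Hsp26* stood at 876 CPM in the mature and 2124 CPM in the immature adult, a ratio of -1.28, and *Hsp23*, another small heat shock protein, at 1042 CPM in the mature and 2506 CPM in the immature adult, a ratio of -1.27. Both were higher in the mature *pros* cells, with ratios of 0.38 and 0.46. *Hsp83*, the fly Hsp90, stood at 5745 CPM in the mature and 3311 CPM in the immature adult, a ratio of 0.79. *NLaz*, a lipocalin that JNK signalling induces, stood at 59.8 CPM in the mature and 5.75 CPM in the immature adult, a ratio of 3.38, with 1122 CPM in the mature and 306 CPM in the immature low barcodes, and 2.49 among cells with less than 1% digestive enzyme UMIs. *Mmp1*, a matrix metalloproteinase, stood at 114 CPM in the mature and 37.1 CPM in the immature adult, a ratio of 1.62. The effector caspase *Dcp-1* stood at 14.9 CPM in the mature and 49.9 CPM in the immature adult, a ratio of -1.74, and *PCNA*, the clamp of DNA replication, at 10.97 CPM in the mature and 29.2 CPM in the immature adult, a ratio of -1.41. The rule removes cells high in *stg* and *dUTPase*, and without that limit the *PCNA* ratio was -2.13.

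Digestive enzymes of ECs were far higher in the mature progenitors. Of 26 tested genes, 23 were at least 2-fold higher and none was lower, against 6.28% higher over all tested genes, with a median ratio of 7.21. The 50 genes of the full list summed to 11460 CPM in the mature and 241 CPM in the immature progenitors. In barcodes with at most 1000 UMIs the same sum was 166289 CPM in the mature and 10366 CPM in the immature library. The trypsin *betaTry* stood at 700 CPM in the mature and 0.454 CPM in the immature adult, with 3 immature UMIs, and a UMI was found in 99.2% of mature and 1.27% of immature cells. For *CG12374* the mature progenitors held 5358 UMIs and the immature ones 0, so that its ratio was at least 11.12 against a floor of 3 UMIs over the group, and a UMI was in 100% of mature cells. The 56 mature cells with at least 1% digestive UMIs held 67.7% of these UMIs, and the other 190 still held 4059 CPM. The list's median ratio was 5.70 without these 56 cells. The part of free RNA and of cells on the way to ECs was not tested.

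Further genes were high in the low barcodes or rested on a few cells. *PGRP-SC2*, an amidase that degrades bacterial peptidoglycan, stood at 245 CPM in the mature and 0.757 CPM in the immature adult, with 80% of the mature UMIs from 5 cells and with 1246 CPM in the mature and 27.4 CPM in the immature low barcodes. *MtnE*, a metallothionein, stood at 135 CPM in the mature and 35.7 CPM in the immature adult, a ratio of 1.92 that was 0.89 among cells with less than 1% digestive enzyme UMIs and -0.10 with the low-barcode profile subtracted at its upper limit. *MtnB* stood at 14.6 CPM in the mature and 65.4 CPM in the immature adult, a ratio of -2.17, with 81% of the immature UMIs from 5 cells. The hormone *NPF* stood at 32.4 CPM in the mature and 1.82 CPM in the immature adult, with 89% of the mature UMIs from 5 cells. By contrast *PGRP-SD*, a secreted sensor of peptidoglycan, stood at 53.5 CPM in the mature and 17.6 CPM in the immature adult, against 3.89 CPM in the mature low barcodes and 0 in the immature ones, a ratio of 1.61.

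Genes enriched in the stem-like progenitors, with at least 2 times the level of the rest of the kept cells in the library where the progenitors had more, numbered 154 among the 325 higher genes (47.4%) and 13 among the 93 lower genes (13.98%). Over all 5172 tested genes, 64.7% were enriched by this measure in the mature and 4.97% in the immature adult, so neither count is read as a result about the progenitors. With only kept cells scoring below 2 per 10000 as the rest, these numbers were 155 and 25. The highest ratios included *CG44085* at 87.8 CPM in the mature and 3.48 CPM in the immature adult. *ogre*, a gap junction innexin, stood at 25.5 CPM in the mature and 1.66 CPM in the immature adult. *unc-104*, a kinesin motor, stood at 63.4 CPM in the mature and 6.81 CPM in the immature adult. *CG1648* (FBgn0033446, 2R:9810974-9820053) stood at 293 CPM in the mature and 49.9 CPM in the immature adult, a ratio of 2.55 (2.38 to 2.73), and was found in 63.1% of mature and 18.3% of immature cells after thinning. *CG6006* stood at 212 CPM in the mature and 30.0 CPM in the immature adult. *CG32521* stood at 78.1 CPM in the mature and 9.08 CPM in the immature adult and *Ten-m*, a teneurin of cell adhesion, at 20.6 CPM in the mature and 3.18 CPM in the immature adult. The cytochrome P450 *Cyp6a9* stood at 36.3 CPM in the mature and 5.45 CPM in the immature adult and its relative *Cyp6a17* at 51.1 CPM in the mature and 9.38 CPM in the immature adult.

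Among the enriched genes lower in the mature adult, *CG4250* (FBgn0034761, 2R:22663692-22664474) stood at 124 CPM in the mature and 468 CPM in the immature adult, a ratio of -1.92 (-2.04 to -1.80). It was found in 31.8% of mature and 74.4% of immature cells after thinning, and in 55.3% of mature and 91.6% of immature cells before it. *CG12868* stood at 165 CPM in the mature and 590 CPM in the immature adult, a ratio of -1.84, and *CG42365* at 80.03 CPM in the mature and 259 CPM in the immature adult, a ratio of -1.70. *Frl*, a formin of the actin cytoskeleton, stood at 189 CPM in the mature and 451 CPM in the immature adult, a ratio of -1.25, which lay between -1.43 and -0.79 over the alternatives. *rau*, a scaffold of receptor tyrosine kinase signalling, stood at 153 CPM in the mature and 286 CPM in the immature adult, a ratio of -0.90 that lies within 2-fold.

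*Msp300*, a giant actin-binding nesprin listed among muscle genes, stood at 3447 CPM in the mature and 1328 CPM in the immature adult, a ratio of 1.38 (1.34 to 1.41). It was found in 98.4% of mature and 98.7% of immature progenitors, and its ratio in *pros* cells was 0.41. It stood at 269 CPM in the rest of the kept cells of the mature and 837 CPM in those of the immature adult.

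Single genes of further lists differed past 2-fold. *MtnC*, a metallothionein, stood at 23.3 CPM in the mature and 7.87 CPM in the immature adult, a ratio of 1.56, and was -0.07 among cells with less than 1% digestive enzyme UMIs. *Dcr-2*, the nuclease that makes small interfering RNAs, stood at 49.2 CPM in the mature and 21.2 CPM in the immature adult, a ratio of 1.22. *Acsl*, which activates fatty acids, stood at 73.6 CPM in the mature and 32.7 CPM in the immature adult, a ratio of 1.17. *path*, an amino acid transporter that promotes growth, stood at 2497 CPM in the mature and 1385 CPM in the immature adult, a ratio of 0.85 that lies within 2-fold.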

How the data were processed

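Single-cell libraries were made from dissociated intestines, 1 per stage, and the authors deposited UMI counts per gene and barcode made with Cell Ranger 3.0.2, not normalised. Whether intronic reads were counted is not given in the sources used here. Cells were kept below 25% mitochondrial UMIs, with more than 200 and fewer than 4000 genes and more than 1000 and fewer than 100000 UMIs. The counts of the chosen cells were summed per library and divided by their total. Genes with at least 100 UMIs in both libraries together were compared, and 2-fold was the limit for calling a gene higher or lower. With 1 library per stage no test was run. Intervals were exact (Poisson, Clopper-Pearson or conditional on the summed count) and cover counting error only. A group with 0 UMIs was set to 3 UMIs. The members and gene lists were chosen with earlier results of these data known.

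Named genes were the genes of the rule, the 15 highest and 15 lowest ratios among all tested and among progenitor-enriched genes, up to 6 genes per list with the largest ratios, further list genes whose role is described, and the clock genes. Of the listed symbols, 13 were not matched to the files. Doublets were kept and no caller was run, with leaving out the 10% of cells with the most UMIs as an alternative. Cells with *pros* held at least 3 UMIs and 3 per 10000 of it. Positions are from the BDGP6 annotation. The ratio and its interval were tested on simulated data. Python 3.11.15, numpy 2.4.6, scipy 1.17.1, pandas 2.3.3 and matplotlib 3.10.9 were used.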

Additional observations from a re-analysis of the deposited data

Results flagged for a closer look

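A pair of genes past 2-fold in the stem-like progenitors lay past 2-fold the other way in the *pros* cells of the same libraries. *CG6330* had a log2 ratio of mature over immature of -1.12 in the progenitors and 1.22 in *pros* cells. *MtnC*, a metallothionein, had a ratio of 1.56 in the progenitors and -1.40 in *pros* cells. With 1 library per stage these differences were not tested.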

How the results depend on the processing

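No paired analysis was possible because each stage has 1 library. Against 325 genes higher and 93 lower, there were 583 and 148 after thinning, 131 and 16 at 4-fold, 148 and 43 with at least 300 UMIs, and 1748 and 891 with no minimum. With at least 50 UMIs 537 were higher. With the low-barcode profile subtracted, at the upper limit that counts every digestive UMI as free RNA, 271 were higher and 164 lower. With the median of all genes subtracted there were 237 and 133, and among cells with at most 3000 genes 51 were lower. The mature adult had 278 progenitors at a score of 5, 189 below 10% mitochondrial UMIs, 192 with at least 10000 UMIs, 190 below 1% digestive UMIs, 214 after thinning and 145 with at most 3000 genes. The immature adult had 194 at a score of 12, 367 with no limit on *stg* and *dUTPase*, and 137 with at most 3000 genes. Among the named genes past 2-fold, the ratio changed sign for *CCHa2* (0.72 at a score of 5), *MtnC* (-0.0738 below 1% digestive UMIs), *MtnB* (0.0068 without the 10% of cells with the most UMIs and 0.21 with at most 3000 genes), and, with the low-barcode profile subtracted, *MtnE* (-0.10), *Jheh3* (-1.46) and *Tsp29Fb* (-4.05). It also changed sign for 28 named genes within 2-fold, *Clk* among them. The cause was not tested. The alternatives without the 5 top cells of each gene, with the median subtracted, with at most 3000 genes, and with low-scoring cells as the rest were chosen after seeing the data. Ratios lay within 2-fold under at least 1 alternative for *CG14695*, *Tk*, *GstD5*, *CCHa2*, *NPF*, *Dl*, *mira*, *MtnC*, *MtnB*, *MtnE*, *CG6330*, *ImpL3*, *Cbl*, *Frl*, *ZnT41F*, *Strica*, *Tsp42Ee*, *Acsl*, *olf186-M*, *Jheh3*, *br*, *Corp*, *kis*, *CG9021*, *Tsp29Fb* and *mt:srRNA*. *per*, *vri* and *tim* stayed past 2-fold in all alternatives run on single genes. Stage, library, age and handling cannot be told apart, and shallow genes are limited by their counts.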
